A study of Danio rerio with 3 samples.

Results

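The Hox cluster genes were followed across 3 arrays of whole zebrafish embryos, by paralogue group from 1 to 13. The members were the probe sets whose single gene symbol in the platform annotation began with hox, a cluster letter from a to d and a number. There were 59 such probe sets of 15502 analysed, and they stood for 42 of the 8793 genes with a name. Where a gene had several probe sets, the one with the highest mean over the arrays gave its value. The genes were placed in an anterior set (paralogue groups 1 to 4, 13 genes), a middle set (5 to 8, 12 genes) and a posterior set (9 to 13, 17 genes).

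Each group was a pool of 400 embryos raised at 28 ± 0.5 °C to 24 hours post-fertilization, and each pool gave 1 array. The uninjected group received nothing, the control siRNA group a control siRNA of unstated sequence, and the PGRP-SC siRNA group an siRNA against zebrafish PGRP-SC, of the peptidoglycan recognition proteins that bind a component of bacterial cell walls. Both siRNAs were given to zygotes at 300 ng/µl and 1 nL each, and embryos of different parents had been mixed at random before injection. With 1 array per group there was no replicate check, no p-value was computed, and the number of arrays limits the precision of every value. No knockdown check was possible here, since 0 probe sets carried the name of such a gene, and the labels give no strain. In every triplet of signals below, the arrays come in the order uninjected, control siRNA, PGRP-SC siRNA.

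Hox genes encode homeodomain transcription factors that give cells along the head-to-tail axis their regional identity. Within a cluster, genes with low paralogue numbers are expressed up to more anterior limits, in the hindbrain and pharyngeal arches, and genes with high numbers are used in the trunk, the tail and the fin buds. They act with cofactors of the Pbx and Meis families, and retinoic acid, Fgf, Wnt and the Cdx factors set their expression limits, while Polycomb and Trithorax proteins maintain them. Zebrafish carry a teleost genome duplication, and the RefSeq gene table (assembly GRCz12tu) listed 49 protein-coding Hox genes in 7 clusters. The array named 13 of the 14 anterior, all 12 of the middle and 17 of the 23 posterior genes of that table. Those not named on it were hoxb1b, hoxc10a, hoxc12a, hoxd12a, hoxa13a, hoxb13a and hoxc13b.

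Signals under the 40th percentile of all signals, 102, were set to that floor before ratios were taken. Where 1 of the 2 arrays was under it the ratio is a bound, and where both were there is none. Of the 42 Hox genes, 26 were above the floor in all 3 arrays, 8 in 1 or 2 arrays, and 8 in none. Over all named genes, 65.4% were above it in all arrays and 24.2% in none. Those under it throughout were hoxa1a, hoxc1a, hoxd3a and hoxb4a of the anterior set, hoxa5a of the middle set, and hoxa11a, hoxc11b and hoxa13b of the posterior set. They gave no comparison, and their transcripts were not measurable at this signal rather than shown to be absent. Because whole embryos were sampled, fewer expressing cells and less RNA per cell cannot be told apart in any value below. Signals of different genes come from different probes and were not set against each other.

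**Figure D1:**
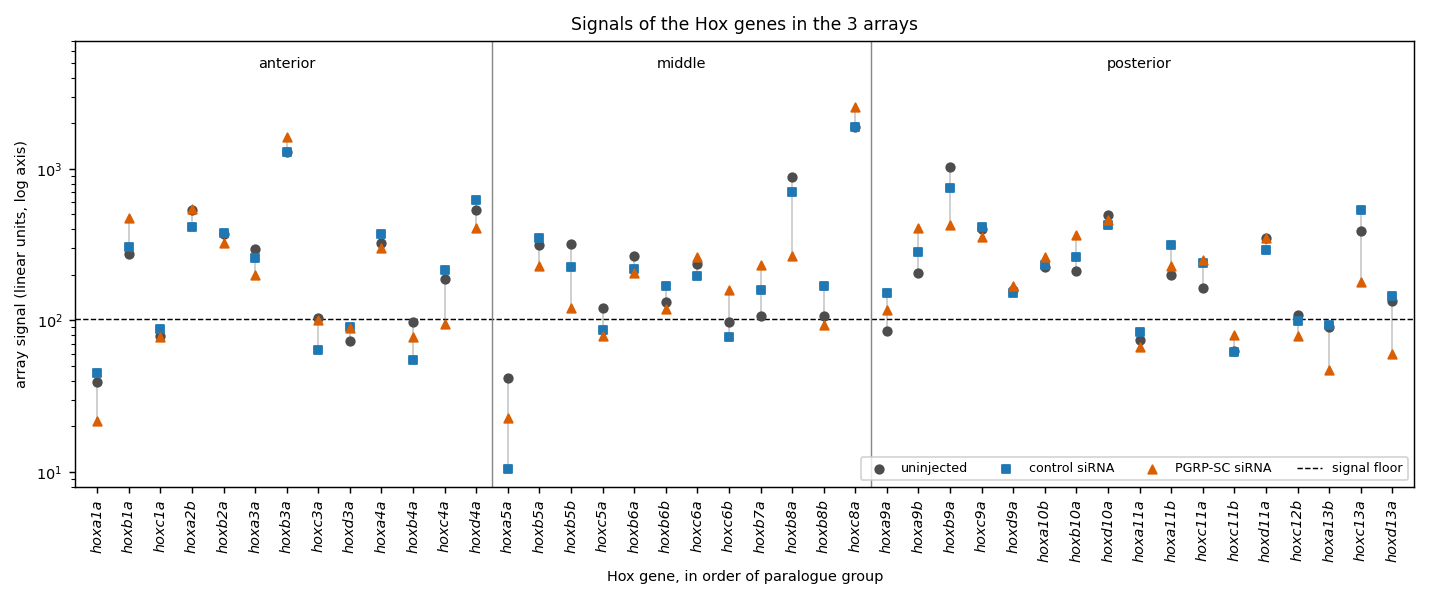
Signals of the 42 Hox genes (log axis, linear array units) in the uninjected, control siRNA and PGRP-SC siRNA arrays, 1 point per array, with the signal floor of 102 as a dashed line. Among others, hoxb8a, hoxb9a, hoxb5b and hoxc13a have their PGRP-SC siRNA point below both other points.

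Against control siRNA, the shared-injection control, the Hox genes with the largest differences were lower with PGRP-SC siRNA. At least 2-fold lower were hoxc13a, hoxb8a and hoxc4a, which is 3 of 31 genes with a ratio or 9.68%, where 2.93% of all 6514 genes were. At least 2-fold higher were 0 of 31, where 2.87% of all genes were. Over the 31 genes the median log2 ratio was -0.22, with 14 above 0 and 17 below, against a median of -0.0026 over all genes. Of the 31 ratios 4 were bounds, that of hoxc4a among them, and the sign of a bound follows from which array passed the floor. Over the 27 Hox genes above the floor in both arrays the median was -0.11. Over the other settings tried the Hox median lay between -0.22 and -0.095, the second with arrays scaled to a common median. The count of Hox genes at least 2-fold lower ranged from 1 to 5 over those settings. No test across samples could be made, so these shares and medians describe the arrays. For scale, the median size of the log2 difference between the 2 control arrays was 0.22 over all genes.

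Within the anterior set, genes of paralogue groups 1 to 3 went both ways and those of group 4 were lower. The gene hoxb1a gives the hindbrain segment rhombomere 4 its identity. Its signals were 276, 307 and 473. That makes the PGRP-SC siRNA array the high one, with a log2 ratio of 0.62 against control siRNA. Signals of hoxb3a, which acts in the caudal hindbrain, were 1289, 1294 and 1623, a log2 ratio of 0.33 with the controls nearly equal. For hoxa2b, which specifies the second pharyngeal arch, the signals were 535, 414 and 540.2. Here the control siRNA array was the low one, so the log2 ratio of 0.38 was not seen against uninjected embryos, where it was 0.01. Its paralogue hoxb2a had a log2 ratio of -0.22. The third-group gene hoxa3a had signals of 296, 258 and 199 and a log2 ratio of -0.37. Of the 3 genes of group 4 with a ratio, the caudal hindbrain gene hoxd4a had 536, 622 and 407, lowest with PGRP-SC siRNA, and a log2 ratio of -0.61. The signals of hoxc4a were 187, 215 and 94.3, the last under the floor, so it was at least 2.11-fold lower. At -0.31, hoxa4a lay on the same side. Over 8 anterior genes the median was -0.26, but it was 0.33 over 5 genes when group 4 was counted as middle, and 0.053 over 6 genes with the floor at the 60th percentile.

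The middle set held both the lower hoxb5, hoxb6 and hoxb8 genes, with hoxb6a at only -0.11 against control siRNA, and a group of higher ones. The trunk gene hoxb8a had signals of 878, 708 and 266. It was 2.66-fold lower with PGRP-SC siRNA than with control siRNA, and the 2 controls lay close to each other by comparison. With the mean over its probe sets in place of the brightest one, its log2 ratio was -0.96 in place of -1.41, short of 2-fold, and the count of lower Hox genes was 2. Only 1 of the 3 ratios in that mean was measured in both arrays, and the others were bounds set by the floor. The retinoic acid target hoxb5b had signals of 319.6, 224 and 120.3, a stepwise order with a log2 ratio of -0.90 against control siRNA. Its duplicate hoxb5a had 313, 349 and 228 and a log2 ratio of -0.62. Also lower were hoxb6b at -0.51 and hoxb8b at -0.73, the second a bound because its PGRP-SC siRNA signal of 93 was under the floor. For hoxb6b the control siRNA array was the high one, at signals of 133, 170 and 119. Against uninjected embryos the hoxb6b log2 ratio was -0.16. On the other side, hoxb7a, which lies beside hoxb8a in the cluster, had signals of 107, 159 and 233. The order of the arrays was the reverse of that for hoxb8a, and its log2 ratio was 0.55. On the probe set used, the trunk gene hoxc8a had 1879, 1879 and 2561, equal in both controls and 1.36-fold higher with PGRP-SC siRNA. The hoxc6 copies were higher too, hoxc6a at 0.41 and hoxc6b at 0.63, the second a bound from under the floor in both controls. For hoxc6a the control siRNA array was the low one, at signals of 236, 196 and 261. Against uninjected embryos the hoxc6a log2 ratio was 0.14. Over 10 middle genes the median was -0.31, with 4 above 0 and 6 below. It was -0.51 when group 4 was counted as middle or when S1 probe sets alone were used, and -0.088 with a pseudocount of 50 in place of the floor.

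In the posterior set 1 gene, hoxc13a, stood at least 2-fold apart. Its signals were 387, 534 and 179. It was 2.98-fold lower than with control siRNA, the largest difference among the Hox genes in this comparison, and the control siRNA array was the highest of the 3. The other group 13 gene with a ratio, hoxd13a, which acts in the distal fin bud, was a bound of at least 1.43-fold lower, from 145 with control siRNA to 60.3 under the floor. Signals of hoxb9a, next to hoxb8a on its other side, were 1029, 751 and 424. The arrays stood in the same order as for hoxb5b, with a log2 ratio of -0.83. Its group 9 relative hoxa9b had 206, 282 and 408 and a log2 ratio of 0.53, in the opposite order. The tail gene hoxb10a, with 210.4, 261 and 364, also had its highest signal with PGRP-SC siRNA, at a log2 ratio of 0.48. All 3 genes of group 10 lay above 0, with hoxa10b at 0.17 and hoxd10a at 0.10, both smaller than the typical difference between the controls. The fin bud gene hoxa11b had 199, 315 and 229, so the control siRNA array alone was high and its log2 ratio was -0.46. The remaining members with a ratio, hoxc9a, hoxd9a, hoxc11a and hoxd11a, lay between -0.23 and 0.26, apart from hoxa9a, whose probe sets disagreed as described with the probe sets. Over 13 posterior genes the median was 0.06. Its sign was negative under 5 of the other settings. The median was -0.23 without a floor, over all 17 genes, and the same when the floor lay at the 20th percentile. It was -0.061 under a 60th percentile floor, -0.20 with a pseudocount of 50 and -0.048 with the mean over probe sets.

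The medians of the 3 position sets, -0.26, -0.31 and 0.06, lay well inside the range of each set, which ran from below -1 to above 0.5. Across the 31 genes the Spearman correlation of paralogue number with the log2 ratio was -0.09, a description only, since genes of a cluster share regulators and all points share the same 2 arrays.

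**Figure D2:**
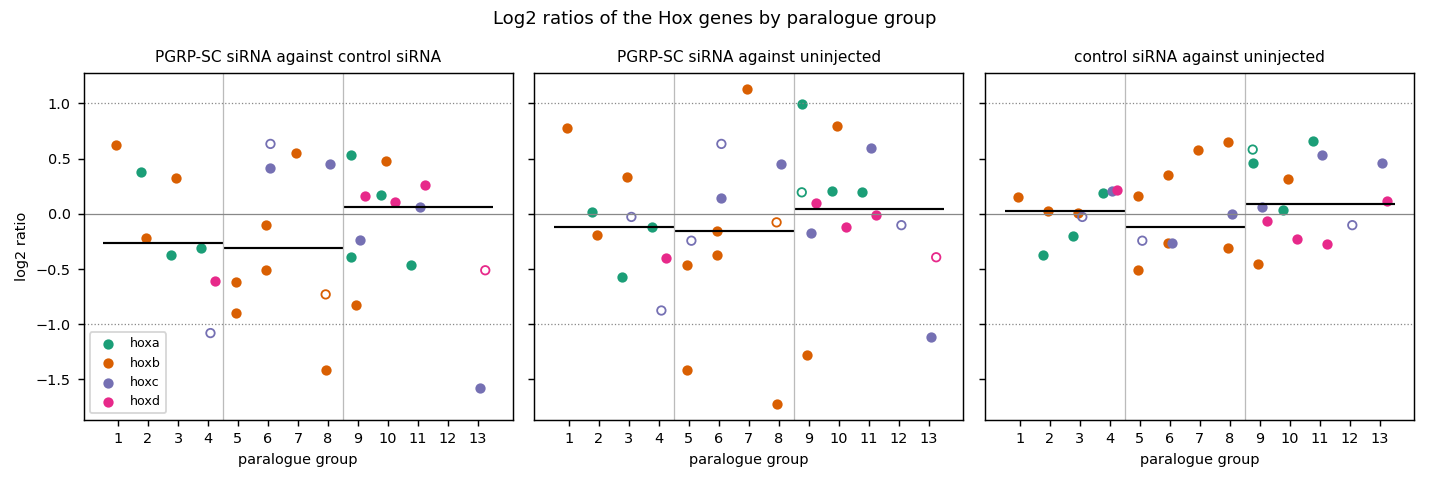
Log2 ratios of the Hox genes by paralogue group in the 3 comparisons, coloured by cluster letter, with filled points measured in both arrays and open points bounds. Black bars are medians of the anterior, middle and posterior sets, dotted lines mark 2-fold, and hoxc13a is the lowest point of the left panel at -1.58.

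With uninjected embryos as the control, 4 of 34 Hox genes with a ratio (11.8%) were at least 2-fold lower with PGRP-SC siRNA, where 6.09% of all 6565 genes were. They were hoxb8a at 3.29-fold, hoxb5b at 2.66-fold, hoxb9a at 2.43-fold and hoxc13a at 2.16-fold lower. At least 2-fold higher was hoxb7a alone, at 2.19-fold, which is 2.94% of the Hox genes beside 5.76% of all genes. Just under that level, hoxa9b had a log2 ratio of 0.99 and was followed by hoxb10a at 0.79 and hoxb1a at 0.78. Both comparisons use the same PGRP-SC siRNA array, so they are not independent of each other.

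By position, the medians against uninjected embryos were -0.12 over 9 anterior, -0.16 over 11 middle and 0.05 over 14 posterior genes, beside 0.02 over all genes. The posterior one was -0.0067 without a floor or with it at the 20th percentile, -0.0059 with a pseudocount of 50 and -0.12 under a 60th percentile floor. In the anterior set the lowest were hoxc4a, a bound at -0.88, hoxa3a at -0.57 and hoxd4a at -0.40. The middle set held both ends of the range over all Hox genes, hoxb8a at -1.72 and hoxb7a at 1.13. In the posterior set hoxc11a, at signals of 165, 239 and 249, stood at 0.59, although its log2 ratio against control siRNA was 0.06, because both injected arrays were above the uninjected one. Of the posterior genes, 7 lay above 0 and 7 below. The rank correlation of paralogue number with the log2 ratio was 0.11 over 34 genes, the other sign from that against control siRNA.

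Between the control siRNA and uninjected arrays, which differ by injection and by all variation between embryo pools, 0 of 33 Hox genes reached 2-fold in either direction. Of all 6462 genes, 1.11% were higher and 0.774% lower. The median of the Hox genes was 0.04, with 19 above 0 and 14 below. The largest differences were hoxa11b at 0.66, hoxb8b at 0.65, hoxa9a at 0.58 as a bound, and hoxb7a at 0.58 on the higher side. On the lower side were hoxb5b at -0.51, hoxb9a at -0.45 and hoxa2b at -0.37. Medians by position were 0.03, -0.12 and 0.09 for anterior, middle and posterior genes. The anterior one turned to -0.00045 under median scaling and to -0.0018 under quantile normalization, and the middle one was 0.16 when group 4 was counted as middle. In the probe sets used, the control siRNA signal thus lay between the others for the middle genes hoxb5b, hoxb7a and hoxb8a. The same held for the posterior genes hoxa9b, hoxb9a and hoxb10a. Among other middle and posterior genes above the floor in all 3 arrays, it also held for hoxb6a, hoxa10b and hoxc11a. In the anterior set it held for hoxb1a, hoxa3a and hoxb3a, the last with its 2 controls nearly equal, so this order was not particular to a position set. In the second probe sets of hoxb9a and hoxa3a the control siRNA signal was the highest.

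Laid out by cluster, neighbouring genes pointed both ways. In the hoxb cluster of copy a, which had 9 of its 10 array genes with a ratio, the log2 ratios against control siRNA in order of paralogue number were 0.62 for hoxb1a, -0.22 for hoxb2a and 0.33 for hoxb3a. They went on with -0.62 for hoxb5a, -0.11 for hoxb6a and 0.55 for hoxb7a, and ended with -1.41 for hoxb8a, -0.83 for hoxb9a and 0.48 for hoxb10a. The pair hoxb8a and hoxb9a thus stood between 2 genes of the opposite sign. In the second hoxb cluster the genes hoxb5b, hoxb6b and hoxb8b were all lower, with a median of -0.73. That median is the value of hoxb8b, a bound that could only be negative. Against uninjected embryos the median of these genes was -0.16. In the first hoxa cluster hoxa3a, hoxa4a and hoxa9a had ratios from -0.39 to -0.31, and in the second 3 of 4 genes lay above 0. For hoxa9a, at -0.39, the second probe set had 0.08. The hoxd genes of groups 9 to 11 lay between 0.10 and 0.26, and hoxd4a and hoxd13a were lower.

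**Figure D3:**
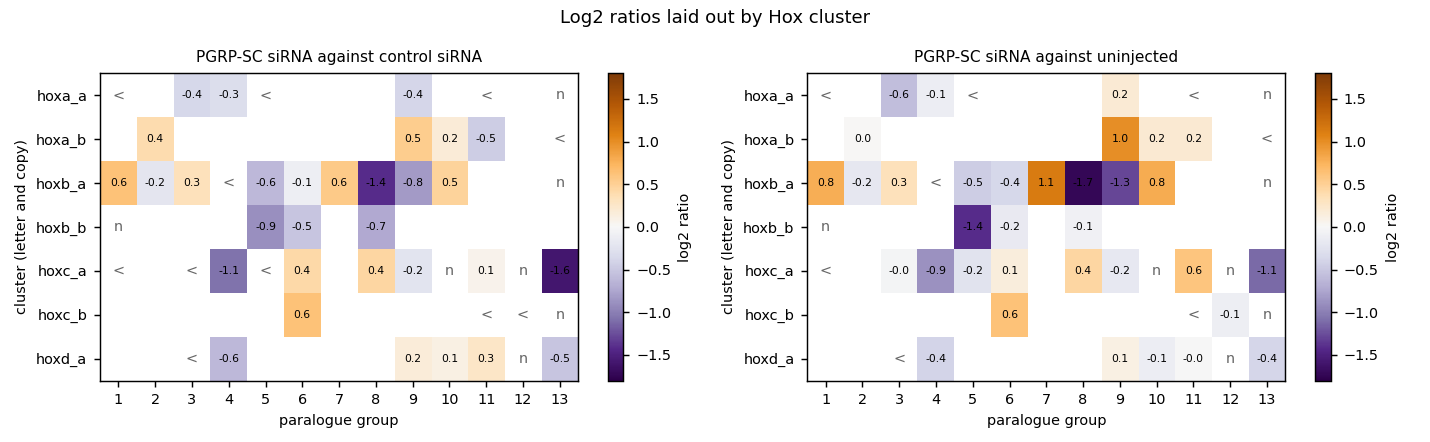
Log2 ratios of PGRP-SC siRNA against each control, with 1 row per Hox cluster (letter and copy) and 1 column per paralogue group. The sign < marks genes under the floor in both arrays, n marks genes of the reference table that the array does not name, and other blanks are positions with no gene. In the row of hoxb genes of copy a, hoxb8a and hoxb9a are low between hoxb7a and hoxb10a, which are high.

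Duplicate copies of the same paralogue could be compared in 5 cases against control siRNA. Both copies were lower for hoxb5, hoxb6 and hoxb8, and both were higher for hoxc6. The ratios of hoxb8b and hoxc6b were bounds. Since hoxc6b passed the floor with PGRP-SC siRNA alone, its ratio could only be positive. At -0.11, hoxb6a lay within the typical difference between the controls, 0.22. The hoxa9 copies differed, at -0.39 for hoxa9a and 0.53 for hoxa9b, but the second hoxa9a probe set had 0.08. Against uninjected embryos hoxb8a and hoxb8b were farther apart, at -1.72 and -0.08. The signals of hoxb8b were 107, 169 and 93, with a log2 ratio of 0.65 between the controls. For hoxa11 and hoxc11 1 copy each was under the floor throughout.

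Several Hox genes had more than 1 probe set, which gives a check within each array but not between embryo pools. Of 13 such genes, 10 had ratios from at least 2 probe sets against control siRNA, and in 8 of these the probe sets pointed the same way. Against uninjected embryos they did so in 7 of 8 genes, and between the controls in 5 of 9. These counts include bounds, whose sign follows from which array passed the floor. Against control siRNA, 2 probe sets were measured in hoxa3a, hoxd4a, hoxb7a, hoxb9a and hoxb10a, which agreed, and in hoxa9a, which did not. Against uninjected embryos only hoxd4a, hoxb9a and hoxb10a had 2 measured probe sets, and these agreed. A second hoxb8a probe set had signals of 315, 227 and 84.2, the same order as the first and at least 2.23-fold lower than with control siRNA. Its name carries the ending that the array maker gives to probe sets matching several transcripts. The third hoxb8a probe set, at 69.7, 127 and 73.9, was under the floor in 2 arrays. A second hoxb10a probe set had 121, 202 and 325, a larger difference than the first, with log2 ratios of 0.68 against control siRNA and 1.42 against uninjected embryos. For hoxb7a the other probe set gave 78.4, 133 and 199, again ordered alike. A second hoxd4a probe set had 255, 225 and 122, with a log2 ratio of -1.06 against uninjected embryos where the first had -0.40. Between the controls these 2 probe sets pointed in opposite directions, at -0.18 and 0.21.

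The probe sets of some genes differed in size or in sign. For hoxb9a the weaker probe set gave 194, 239 and 160.3, so the control siRNA array was its highest, and its log2 ratios were -0.57 against control siRNA and -0.28 against uninjected embryos, well short of 2-fold. Between the controls the hoxb9a probe sets had opposite signs, at -0.45 and 0.30. The genes with opposite signs against control siRNA were hoxa9a and hoxc11a. For hoxa9a the probe set used gave 85, 152 and 116 and the other 87.9, 120.3 and 127. Against control siRNA their log2 ratios were -0.39 and 0.08. For hoxc11a they were 0.06 and -0.16, the second a bound from a probe set with 64.3, 113 and 95.6 that was above the floor in 1 array. The second hoxa3a probe set gave 88.2, 182 and 109, at -0.73 and 0.11 against the 2 controls. Names of the probe sets contain S1 or A1, and the strand that each reads was not given in the sources used here. In 7 of 8 cases where both kinds came from 1 accession the A1 signal was the weaker. Of the 42 genes, 7 took their value from an A1 probe set, among them hoxc13a, hoxb9a, hoxb10a and hoxc8a. For hoxc13a there was no other probe set. The other hoxc8a probe sets were far weaker, at 74.7, 88.8 and 130 and at 27.4, 54.8 and 67.5. Of these signals only the 130 with PGRP-SC siRNA was above the floor.

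**Figure D4:**
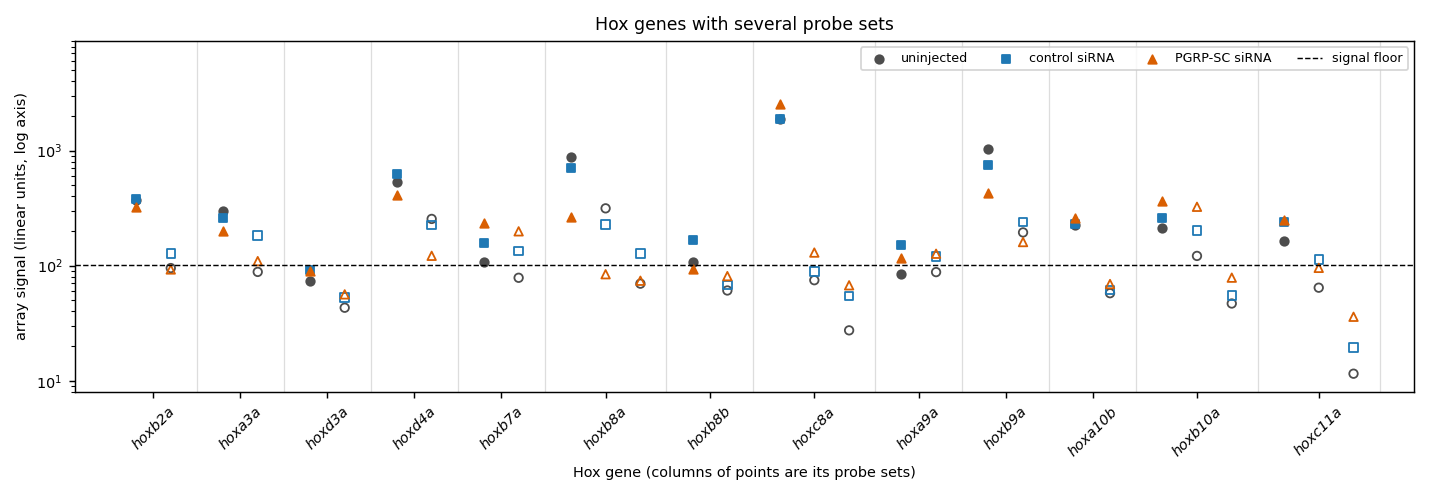
Signals (log axis, linear array units) of each probe set of the 13 Hox genes with several, with filled points for the probe set used and open points for the others. The dashed line is the floor of 102. The first 2 probe sets of hoxb8a both have the PGRP-SC siRNA point lowest, while those of hoxa9a differ in which array is highest.

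The cofactors that bind DNA together with Hox proteins showed small differences. As a background for every list that follows, 2.87% of all genes were at least 2-fold higher and 2.93% lower against control siRNA, and 5.76% and 6.09% against uninjected embryos. The lists were chosen with earlier results of these data known, so counts set beside these shares are descriptions only. Of the 10 Pbx, Meis and Pknox genes with a ratio against control siRNA, 0 reached 2-fold either way, 8 lay below 0, and the median was -0.23. Of 11 against uninjected embryos, 1 was at least 2-fold lower, a count to be read beside the 6.09% of all genes. This was pbx1a, with signals of 269, 116 and 85.2, the last under the floor, and its difference between the 2 controls was already 2.32-fold. Its relative pbx4, the main early Pbx gene of the zebrafish hindbrain, had 437, 401 and 589.7 and a log2 ratio of 0.56 against control siRNA. Of 19 Polycomb and Trithorax genes with a ratio, 0 were at least 2-fold apart against control siRNA and 1, phc2b, was at least 2-fold lower against uninjected embryos, with medians of -0.02 and 0.05. That 1 gene of 19 is again beside 6.09% of all genes. The first of these medians turned to 0.04 under median scaling.

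Of the cdx, evx and retinoic acid genes, only cdx4 and rbp4 differed more from control siRNA than any Hox gene, at 3.22-fold and 4.22-fold. The caudal factor cdx4, which activates trunk Hox genes, had signals of 589.6, 1496 and 4810.0, and was 3.22-fold higher than with control siRNA. With control siRNA cdx4 was already 2.54-fold higher than in uninjected embryos. Of the cdx and evx list it was the only gene at least 2-fold apart against control siRNA among 3 with a ratio, and all 3 lay above 0, where 2.87% of all genes were higher by that much. The retinoic acid list had 3 of 14 genes at least 2-fold higher against control siRNA and 2 lower by that much, beside 2.87% and 2.93% of all genes, with a median of -0.03, which turned to 0.04 under median scaling. The retinoic acid degrading enzyme gene cyp26a1 had 388, 688 and 1896, and the retinol dehydrogenase gene rdh10b had 147, 233 and 566. Both were highest with PGRP-SC siRNA, and the receptor gene rarab was the third higher one. Lower were rbp4, the retinol carrier, with 2960.0, 3979 and 942, and crabp2a, which binds retinoic acid in the cell, with 890.4, 925 and 428. The cyp26a1 relative cyp26b1 went the other way from cyp26a1, with 682, 655 and 374 and a log2 ratio of -0.81, short of 2-fold. The synthesis gene aldh1a2 had 998, 913 and 945, a log2 ratio of 0.05.

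Among other patterning genes around the Hox domains, 2-fold differences against control siRNA were all on the higher side, where 2.87% of all genes were that much higher and 2.93% lower. Of 14 genes of the hindbrain and its neighbouring regions, 4 were at least 2-fold higher against control siRNA and 0 lower, with a median of 0.56. The 4 were irx7, fgf8a, otx2a and egr2b, and the last, which marks rhombomeres 3 and 5, had 223, 409 and 834. Of 16 tail bud genes, 5 passed 2-fold upward and 0 downward, with a median of 0.69: msgn1, cyp26a1, fgf8a, tbx16 and her7. The tbx16 signals were 65.7, 161 and 429.9. Of 57 homeobox genes outside the Hox clusters, 6 passed 2-fold upward and 0 downward, with a median of 0.04, and the 4 highest were ved, vox, noto and irx7. These lists share fgf8a, cyp26a1, eve1 and several homeobox genes. They too were chosen with earlier results of these data known, which may have shaped their counts. The posterior Hox median of 0.06, negative under other floors, stood beside the tail bud median of 0.69 in the same arrays. Between the 2 controls the tail bud median was already 0.48, with 11 of 12 genes above 0. In that comparison tbx16, her7 and eve1 were under the floor in the uninjected array alone, so their ratios could only be positive. With PGRP-SC siRNA against either control, the ratios of her1, mespaa, mespba and sall4 could only be positive, since they passed the floor with PGRP-SC siRNA alone.

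**Figure D5:**
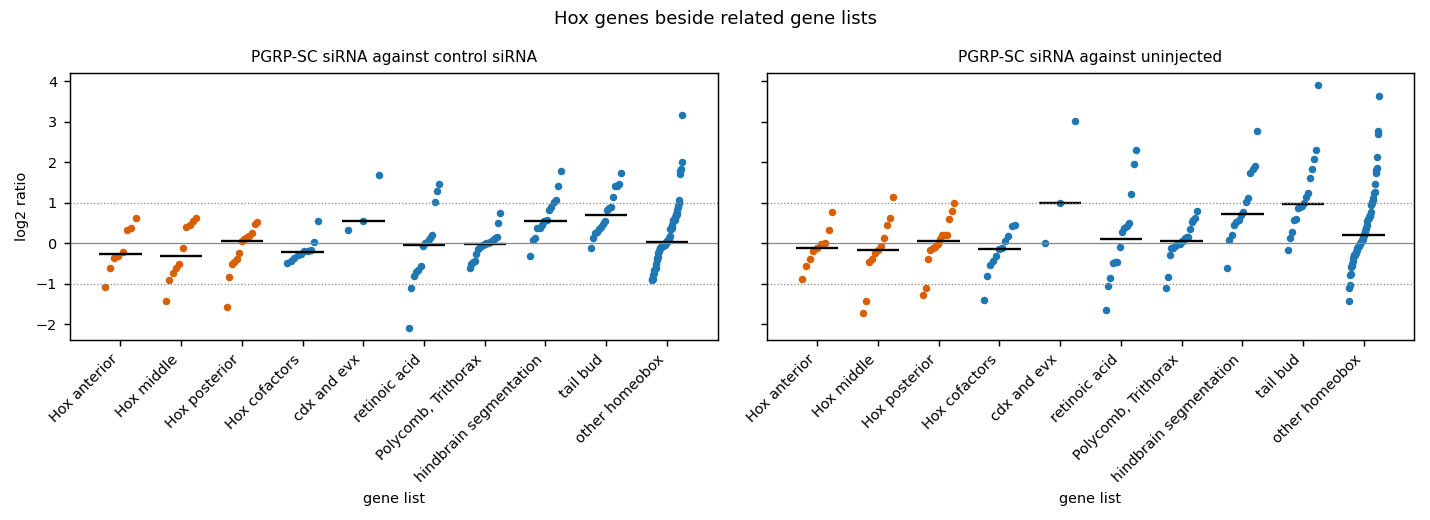
Log2 ratios of PGRP-SC siRNA against each control for the 3 Hox sets (orange) and related lists (blue), 1 point per gene with a ratio, black bars for medians and dotted lines at 2-fold. Against control siRNA the tail bud bar lies at 0.69 and the Hox bars between -0.31 and 0.06.

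Markers of several cell types also differed between the arrays, and their counts are to be read beside the 2.87% of all genes higher and 2.93% lower by 2-fold against control siRNA. All 12 skeletal muscle, 10 neuron, 10 neural progenitor, 7 notochord, 6 blood and 6 epidermis markers on the array were above the floor in at least 1 array, so the cell types looked for in whole embryos were all represented. The summed signal of the muscle markers was 106240.0, 79262 and 46789.6, with 5 of 12 at least 2-fold lower against control siRNA and 1, myf5, higher. That of the neuron markers was 7433, 6152 and 3652, with 4 of 10 at least 2-fold lower and 0 higher. That of the neural progenitor markers, cells in which many Hox genes are expressed, was 13940.5, 16000.4 and 12014. At least 2-fold lower was 1 of 10, with 0 higher, but 9 lay below 0 against control siRNA, with a median of -0.28. The 1 gene was fabp7a, with signals of 2013, 817 and 224. Against uninjected embryos 5 markers lay above 0 and 5 below, with a median of -0.06. Between the 2 controls the median was 0.16. The blood markers summed to 46637, 31468 and 21728.5, with all 6 below 0 against control siRNA, 1 of them at least 2-fold lower, and a median log2 ratio of -0.62. For the epidermis markers the sum was 55753, 55289 and 63399, with a median of 0.20 and 0 of 6 at 2-fold. For the notochord markers it was 9015, 10228 and 9087, with 1 of 7, noto, at least 2-fold higher and a median of -0.05, which turned to 0.02 under median scaling. For the tail bud list it was 6322, 8639 and 14763. Such sums are weighted toward the brightest probe sets, so hbae3 and hbbe3 made up most of the blood sum. Most of the epidermis sum came from krt4, krt5 and krt8. The part of these differences in the Hox values was not tested.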

How the data were processed

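Per the labels' protocols, Trizol RNA was labelled with biotin and hybridised to Affymetrix arrays. The submitters' processing notes name GCOS 1.4 and no other setting. The deposited values are linear intensities of probe sets with a 2% trimmed mean of 500.1 in each array, which hides any difference in total RNA. It held no detection calls. The 115 control probe sets of 15617 were left out, and the rest brought to 1 trimmed mean (factors 1.00, 0.999 and 1.00). Gene symbols came from the platform annotation, and all 59 Hox symbols matched the reference table.

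Ratios were computed with Python 3.11.15, numpy 2.4.6 and pandas 2.3.3, and cyclic loess with limma 3.58.1. The members and gene lists were chosen with earlier results of these data known. The gene islr2, which has no homeobox, was taken out of the other homeobox list after its values were seen. Named were all Hox genes at least 2-fold apart, the 5 largest measured differences of each position set, genes whose probe sets disagree, and up to 4 genes per list at least 2-fold from both controls. Other genes named beside a count were added after their values were seen. Scaling, floor, pseudocount, probe set choice, threshold and the place of group 4 were varied. The steps were tested on simulated data, in which only probe sets well above the floor were changed, by more than 2-fold. That test does not cover signals near the floor or differences close to 2-fold.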

Additional observations from a re-analysis of the deposited data

How the results depend on the processing

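Of 129 median log2 ratios recomputed under other settings for the 12 reported medians, 123 moved by less than 0.22, the typical difference between the controls, but that is as large as most of the medians, and 15 of the 129 had the other sign. The anterior median against control siRNA turned to 0.053 under a 60th percentile floor and to 0.33 with paralogue group 4 counted as middle. The posterior median against control siRNA turned to -0.23 under 2 settings, no floor and a floor at the 20th percentile, and to -0.20 under a pseudocount of 50. The smaller changes of sign were those of the posterior medians, given in the report, and of the anterior median between the controls, which was -0.00045, -0.0018 and, with group 4 counted as middle, -0.011. The middle median between the controls was 0.16 with group 4 counted as middle.

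Against control siRNA the count of Hox genes at least 2-fold higher was 2 without a floor and 1 when it lay at the 20th percentile, in place of 0. The count of lower genes, 3 in the report, was 5 without a floor, 4 when it lay at the 20th percentile and 1 at the 60th. It was 2 with a pseudocount of 50 and with the mean over probe sets. With S1 probe sets only, and with genes above the floor in both arrays only, it was 2 as well. At a threshold of 1.5-fold there were 2 higher and 8 lower. The share of all genes was taken at 2-fold only, so no count at 1.5-fold in this section can be set against a background. Against uninjected embryos the count of higher genes, 1 in the report, was 2 with median scaling, with the mean over probe sets and with S1 probe sets only, 0 with a pseudocount of 50 or a 60th percentile floor, and 6 at 1.5-fold. The count of lower genes, 4 in the report, was 2 with a 60th percentile floor and 2 with S1 probe sets only. It was 3 with a pseudocount of 50 or the mean over probe sets, and 5 without a floor or with it at the 20th percentile. Between the controls there were 2 higher genes at 1.5-fold and 1 lower gene with no floor. The settings with fewer calls at the 60th percentile left fewer genes with a ratio, 17 or 18. For the lower genes against control siRNA, the setting with S1 probe sets only left out hoxc13a, which had an A1 probe set alone. The setting with genes above the floor in both arrays only left out hoxc4a, a bound. With a pseudocount of 50 hoxc4a was at -0.88, and with the mean over probe sets hoxb8a was at -0.96, both short of 2-fold. For the other counts the cause was not tested. The setting with S1 probe sets only, and a further one with genes above the floor in both arrays only, were chosen after seeing the data. No paired analysis was possible because each group had 1 array. Signals near the floor limit what can be said of the 8 Hox genes under it throughout.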

Other observations

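The protein-coding genes that flank the Hox clusters in the RefSeq gene order (GRCz12tu), 2 on each side of the 7 clusters, were looked at as well. The array named 16 of these 28 neighbours, and 14 gave a ratio. Against control siRNA 1 of the 14 was at least 2-fold higher and 0 lower, beside 2.87% and 2.93% of all genes. The median log2 ratio was 0.04. The higher gene was the sorting nexin gene snx10a, beyond the hoxa1a end of a hoxa cluster, with signals, in the order of arrays used above, of 224, 187 and 459. At the other end of that cluster hibadha, of valine breakdown, had 268, 224 and 435. Beside hoxb13a lies the even-skipped homologue eve1, with 94.4, 138 and 203, the uninjected signal being under the floor. Next to it the ATP synthase subunit gene atp5mc1 had 9964, 5429 and 3319 and a log2 ratio of -1.59 against uninjected embryos. In that comparison 6.09% of all genes were at least 2-fold lower. The heterochromatin protein gene cbx1a, beyond hoxb1a, had 2452, 3162 and 2323. The 28 neighbours were chosen by position alone, but those named were picked after their values were seen. All are single values from 1 array per group.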
